A study of Caenorhabditis elegans with 20 samples.

Results

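Whole animals of both sexes were compared in the middle of the first larval stage (L1) of Caenorhabditis elegans, by RNA sequencing of cells dissociated from intact larvae that had been fed for 9.5 hr. A gene was included when its level was at least 5 FPKM (fragments per kilobase of transcript, scaled to the number of mapped fragments) in the sex with the higher level, which took in 12076 of the 19861 named genes, or 60.8%, whichever sex was higher. Males were strain DZ683, which carries xol-1(y9) on the X, the array rdIs4 and the allele tra-2(ar221) on chromosome II, and were sequenced as 3 samples. They carried a pair of X chromosomes, like hermaphrodites, and developed as pseudomales because the temperature-sensitive tra-2 allele was held at its restrictive temperature. The hermaphrodites, also 3 samples, were xol-1(y9) animals, so both sexes shared the xol-1 allele, which eliminates XO animals. The array rdIs4 drives the fluorescent protein Venus from the ehn-3a promoter in the somatic gonad precursors, and the hermaphrodites of this comparison lacked it. Sex, the tra-2 allele and the array therefore changed together here and cannot be told apart. Samples were unsorted cells that had passed a fine filter, prepared from very large pools of synchronized larvae, and ribosomal RNA was depleted without selecting polyadenylated RNA.

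In C. elegans the number of X chromosomes sets the activity of xol-1, which acts through her-1 and the tra and fem genes on the transcription factor TRA-1, the regulator that promotes hermaphrodite fate in the soma. The bodies of young L1 larvae of either sex look nearly alike. They differ mainly in a few neurons, among them the CEM neurons kept in males and the HSN neurons kept in hermaphrodites, and in the positions of certain cells. The larva also makes its next cuticle during L1: epidermal cells express waves of collagens, proteases and apical matrix proteins ahead of each molt, with furrow collagens early in the cycle and other collagens later. The germ line at this stage consists of a few dividing precursor cells, and meiosis begins in later larvae.

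The deposited tables give 1 pooled FPKM per gene and group, calculated over the samples of that group. Levels in each separate sample were not used here, so no difference below has a replicate error or a test, and each is a description of the pooled levels. Differences are given as the log2 ratio of male over hermaphrodite level after adding 1 FPKM to both, which understates differences of low genes. A gene is called male-biased or hermaphrodite-biased when this ratio reaches 1 in size, a 2-fold difference. The summed FPKM was 696102 in males and 702257 in hermaphrodites. The number of genes with at least 1 FPKM was 16329 in males and 17947 in hermaphrodites, so more low genes were detected in the hermaphrodite group. Read depth per sample was not given in the files used here.

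The whole-animal transcriptomes of the sexes were close to each other. The log2 ratio had a median of 0.0006 over the 12076 genes, with quartiles at -0.19 and 0.18, and 9971 genes (82.6%) lay within 0.5 of 0. There were 279 male-biased genes (2.31%) and 380 hermaphrodite-biased genes (3.15%). At a log2 ratio of 2 the counts were 59 (0.489%) and 60 (0.497%). Cuticle collagens made up 21 of the male-biased genes. Among genes of at least 1 FPKM in both sexes, the largest male ratio was that of unc-119. The hermaphrodite-biased genes included 17 F-box genes and 7 insulin-like peptides and, from groups put together after values had been seen, 13 meiosis genes and 12 MATH-BTB genes.

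**Figure D1:**
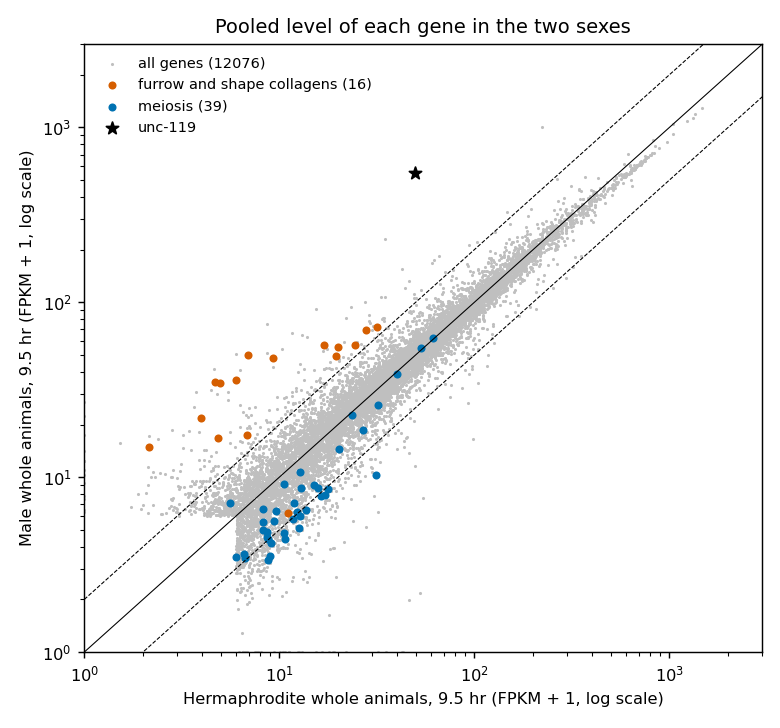
Each point is 1 of 12076 genes, placed by its pooled level in hermaphrodites (x) and males (y) at 9.5 hr, as FPKM + 1 on log axes. The solid line marks equal levels and the dashed lines a log2 ratio of 1 in either direction. Of the 16 furrow and shape collagens (orange), 15 lie above the upper dashed line, most of the 39 meiosis genes (blue) lie below the solid line, and unc-119 (star) stands at 549 against 48.9 FPKM.

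Cuticle collagens with a known role in body shape were nearly all male-biased. The furrow collagens form the circumferential furrows of the cuticle, and loss of any of them gives short, dumpy animals. All 6 of them were male-biased, against 2.31% of all genes, with a median log2 ratio of 1.395. dpy-8 was at 47.1 FPKM in males against 8.3 in hermaphrodites, a log2 ratio of 2.37 and the largest among the furrow collagens. dpy-10 was at 56.03 FPKM in males against 16.02 in hermaphrodites (1.74), and dpy-2 at 54.5 FPKM in males against 19.01 in hermaphrodites (1.47). The furrow collagen of highest level, dpy-9, had the smallest ratio, with 71.02 FPKM in males against 30.7 in hermaphrodites (1.19). The other members, dpy-7 and dpy-3, were between these, with log2 ratios of 1.32 and 1.22. No male level of a furrow collagen was as low as any hermaphrodite level, since male levels ran from 47.1 to 71.02 FPKM and hermaphrodite levels from 8.3 to 30.7 FPKM.

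The other shape collagens, named for the squat, roller, long or dumpy animals their mutants give, differed more. Of 10 that passed the filter, 9 were male-biased and none hermaphrodite-biased, with a median log2 ratio of 2.53 (1.67 with 5 FPKM added to both sexes in place of 1). A further 3 of the list were below the filter in both sexes. sqt-3, a collagen needed for viability and body shape, was at 34.2 FPKM in males against 3.69 in hermaphrodites, a log2 ratio of 2.91. sqt-1 was at 49.2 FPKM in males against 5.93 in hermaphrodites (2.86) and rol-6, the collagen behind the widely used roller marker, at 13.98 FPKM in males against 1.14 in hermaphrodites (2.81). These 3 genes were above 10 FPKM in males and below it in hermaphrodites. sqt-2, dpy-5 and dpy-13 had log2 ratios of 2.798, 2.59 and 2.46, and dpy-4, lon-3 and rol-8 of 1.79, 1.35 and 1.34. The loci of sqt-2, dpy-4 and lon-3 overlap other genes of the table, and reads there may be shared. The exception was dpy-14, at 5.28 FPKM in males against 10.03 in hermaphrodites (-0.81).

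All of the shape collagens but dpy-14 were much higher in both sexes at 15 hr, when none of those was past 2-fold. The levels of the times come from separate normalization runs, the 15 hr groups held 2 samples each, and their hermaphrodites carried rdIs4. For rol-6 the 15 hr levels were 235 FPKM in males against 197 in hermaphrodites, a log2 ratio of 0.26. For dpy-13 they were 375 and 362 FPKM (0.05), and for sqt-3 278 and 236 FPKM (0.24). dpy-14 was lower at 15 hr than at 9.5 hr in both sexes, at 1.89 and 3.1 FPKM (-0.504). All 9 male-biased shape collagens were higher in both sexes at 15 hr than in either sex at 9.5 hr, and at 9.5 hr the male levels stood nearer to the later ones. Furrow collagens were near their 15 hr level in males already, with 9.5 hr medians of 55.96 FPKM in males against 21.2 in hermaphrodites and 15 hr medians of 72.9 and 66.4 FPKM. At 15 hr the 6 furrow collagens had log2 ratios between 0.05 and 0.304, none past 1. The sex difference in these collagens was thus present at 9.5 hr and not past 2-fold at 15 hr. By the study's methods the 9.5 hr larvae were in mid-L1 and the 15 hr larvae in late L1, and no finer staging was used here.

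**Figure D2:**
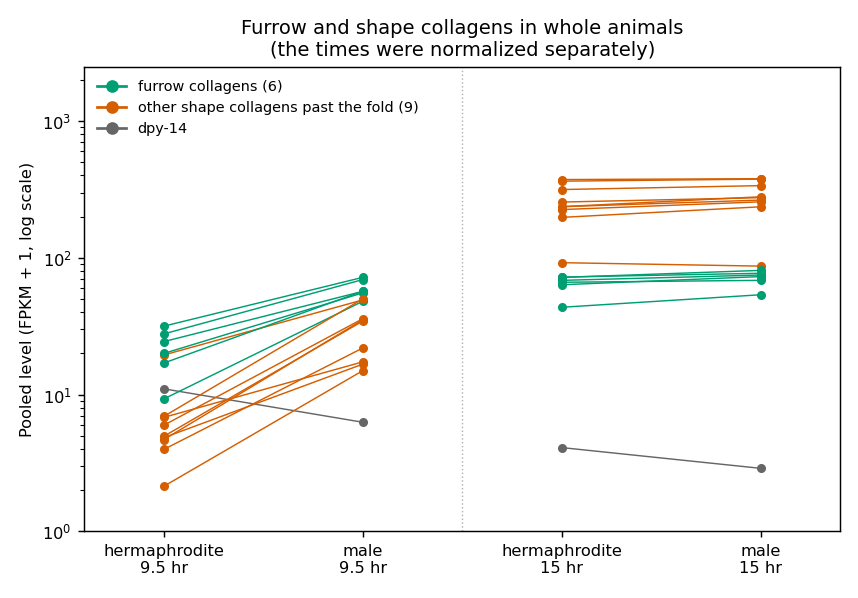
Pooled FPKM + 1 (log axis) of the 16 furrow and shape collagens in hermaphrodite and male whole animals at 9.5 hr and at 15 hr; lines join the sexes at a time. At 9.5 hr the lines climb toward males, except for dpy-14, and at 15 hr those of the other 15 genes are nearly flat, with furrow collagens between 42.5 and 79.96 FPKM.

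The collagens named col, a much larger set, went both ways. Of 158 such genes, 58 passed the filter, with 6 (10.3%) male-biased, 3 (5.17%) hermaphrodite-biased, against 2.31% and 3.15% of all genes, and a median log2 ratio of -0.12. col-17 was the most male-biased, at 15.5 FPKM in males against 1.38 in hermaphrodites (2.795), followed by col-46 at 9.49 FPKM in males against 1.6 in hermaphrodites (2.01) and col-128 (1.42). All 6 male-biased col genes were higher in both sexes at 15 hr than in either sex at 9.5 hr; col-17, for instance, reached 275 and 259.6 FPKM. In the other direction col-141 was at 5.08 FPKM in males against 14.1 in hermaphrodites (-1.31), while the col gene of highest level, col-98, was at 343 FPKM in males against 351 in hermaphrodites (-0.03). Over all 74 collagens the median log2 ratio was -0.04, with 21 (28.4%) male-biased and 3 (4.05%) hermaphrodite-biased. Collagen genes are a family of similar sequences, and short single reads may be divided among close copies.

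Genes that act at molting and in the apical matrix that lines the epidermis before a new cuticle leaned the same way. Of 32 such genes, 6 (18.8%) were male-biased and none hermaphrodite-biased, against 2.31% and 3.15% of all genes. A ratio above 0 was found for 25, and the median was 0.23. lin-42, the period homolog whose transcript cycles with each molt, was at 52.95 FPKM in males against 16.46 in hermaphrodites (1.63). mlt-9 was at 18.7 FPKM in males against 5.99 in hermaphrodites (1.49), and mlt-11, a protease inhibitor-like gene, at 40.9 FPKM in males against 16.9 in hermaphrodites (1.23). nas-37, an astacin metalloprotease that works in the shedding of the old cuticle, was at 25.3 FPKM in males against 10.8 in hermaphrodites (1.16). Its relative nas-36 was at 9.56 FPKM in males against 15.97 in hermaphrodites (-0.69), toward hermaphrodites. lpr-3, a lipocalin-related matrix protein, had 46.6 FPKM in males against 19.2 in hermaphrodites (1.23), and qua-1, a hedgehog-related gene, 7.61 FPKM in males against 3.18 in hermaphrodites (1.04). The molting regulators nhr-23 and nhr-25 were within 2-fold, with log2 ratios of 0.39 and 0.04, as was the highest gene of the list, the protease bli-4 (0.11). Among the hedgehog-related and patched-related genes as a whole, 3 of 37 (8.11%) were male-biased, wrt-2 (1.31), ptr-19 (1.21) and qua-1. The median was 0.0035. The locus of wrt-2 overlaps another gene. At 15 hr all of these male-biased matrix genes lay within 0.5 of 0, lin-42 at 0.38 and nas-37 at -0.05 among them.

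Some gene groups were assembled after values had been seen, for the genes that stood out in the ranking, and are given as descriptions only. The lipocalin-related genes lpr were 2 of 4 male-biased, with lpr-4 at 50.3 FPKM in males against 7.64 in hermaphrodites (2.57). In the fip and fipr family of small secreted peptides, named for their response to fungal infection, 9 of 23 (39.1%) were male-biased and 2 (8.7%) hermaphrodite-biased. The median was 0.63, and the shares over all genes were 2.31% and 3.15%. fip-1 was at 229 FPKM in males against 33.9 in hermaphrodites (2.72), and fipr-29 at 29.9 FPKM in males against 2.75 in hermaphrodites (3.04). The locus of fip-1 overlaps another gene. Both hermaphrodite-biased members, fipr-15 and fipr-16, were listed at 0 in males, at 18.04 and 9.64 FPKM in hermaphrodites. In whole animals at 15 hr the median of the family was -0.28, toward hermaphrodites. Of 19 members that passed the filter there, none was male-biased and 5 were hermaphrodite-biased, against 1.18% and 2.93% of all genes. The best known epidermal antimicrobial peptides, the nlp and cnc genes that answer infection and wounding, formed a separate list. Of its 18 members 3 (16.7%) were male-biased, against 2.31% of all genes. A ratio above 0 was found for 14, and the median was 0.44. cnc-7 was at 41.5 FPKM in males against 8.32 in hermaphrodites (2.19), cnc-6 at 7.94 FPKM in males against 2.04 in hermaphrodites (1.56) and nlp-28 at 80.3 FPKM in males against 33.02 in hermaphrodites (1.26). nlp-34, the highest of them, was at 507 FPKM in males against 264 in hermaphrodites and just under 2-fold (0.94). cnc-7, cnc-6 and nlp-28 were also past 2-fold toward males at 15 hr (1.13, 1.36 and 1.203), although cnc-6 was by then under 5 FPKM in both sexes.

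Germline genes leaned toward hermaphrodites. Of 18 genes of germ granules and germline regulators, 15 had a ratio below 0 and the median was -0.47. Among all genes with a mean of 5 to 20 FPKM, 53.5% were below 0. Only 1 gene of the list (5.56%) was past 2-fold toward hermaphrodites, a share near the 3.15% of all genes. It was fbf-1, an RNA-binding regulator that keeps germline stem cells, at 2.5 FPKM in males against 6.04 in hermaphrodites (-1.01). Its close paralog fbf-2 was at 4.35 FPKM in males against 9.63 in hermaphrodites (-0.99), and the granule component pgl-1 at 22.5 FPKM in males against 36.5 in hermaphrodites (-0.68). cgh-1, the member of highest level, which is also expressed outside the germ line, was at 70.5 FPKM in males against 59.9 in hermaphrodites (0.23). In bulk samples fewer cells of a type and less RNA per cell cannot be told apart, and germ cells were not counted.

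A set of 39 meiosis genes was assembled after values had been seen, so its counts describe the set and add no support to the germline list. In it 13 genes (33.3%) were hermaphrodite-biased, against 3.15% of all genes, and none male-biased. A ratio below 0 was found for 36, and the median was -0.83 (-0.52 with 5 FPKM added). F55A12.10, named zhp-1 in the current annotation and a ring finger protein of meiotic chromosomes, was at 9.34 FPKM in males against 30.3 in hermaphrodites (-1.597). sun-1, which links chromosomes to the cytoskeleton through the nuclear envelope, was at 3.44 FPKM in males against 9.66 in hermaphrodites (-1.26). him-3 and htp-1, proteins of the chromosome axis, were at 6.84 FPKM in males against 15.4 in hermaphrodites (-1.07), and at 7.59 FPKM in males against 16.7 in hermaphrodites (-1.05). The pairing proteins zim-1 and zim-3 had log2 ratios of -1.31 and -0.996, the synaptonemal complex gene syp-3 one of -1.102, and spo-11, which makes the breaks that start recombination, one of -1.11. By contrast rad-51, which also repairs breaks in dividing cells, was at 24.8 FPKM in males against 31.1 in hermaphrodites (-0.31). The loci of zim-1, syp-3 and spo-11 overlap other genes of the table. The meiosis genes were low in both sexes, with a median of the mean level of 8.28 FPKM.

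The groups of small RNA and oocyte genes were likewise assembled after values had been seen and are given as descriptions only. Among 18 genes of the germline small RNA pathways 4 (22.2%) were hermaphrodite-biased, against 3.15% of all genes. A ratio below 0 was found for 17, and the median was -0.65. prg-2, an Argonaute of the Piwi family, was at 13.5 FPKM in males against 39.3 in hermaphrodites (-1.48), and its close paralog prg-1 at 42.6 FPKM in males against 60.8 in hermaphrodites (-0.502). Reads may be divided between these copies. F55A12.1, now wago-2, was at 19.96 FPKM in males against 47.8 in hermaphrodites (-1.22), while drh-3, ekl-1 and rrf-1, which also act in the soma, were between -0.05 and -0.03. Of 15 oocyte and maternal genes 4 (26.7%) were hermaphrodite-biased, with a median of -0.74 (-0.49 with 5 FPKM added). cey-3 and cey-2, Y-box RNA-binding proteins, were at 6.61 FPKM in males against 20.3 in hermaphrodites (-1.49), and at 7.3 FPKM in males against 17.5 in hermaphrodites (-1.16). Only 2 of 39 sperm genes passed the filter, neither past 2-fold. None of the 6 yolk protein genes passed it.

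The medians of these groups were nearer to 0 at 15 hr. The median log2 ratio of the meiosis genes was -0.11 there, that of the small RNA genes -0.11 and that of the germline list -0.15. F55A12.10 was at 8.21 FPKM in males against 23.5 in hermaphrodites (-1.41), while sun-1 was at 9.16 and 11.4 FPKM (-0.29) and prg-2 at 29.8 and 31.4 FPKM (-0.07). DNA replication and mitosis genes, which dividing cells of every tissue use, had a small shift toward hermaphrodites at 9.5 hr: 29 of 33 were below 0, none past 2-fold, and the median was -0.203. At 15 hr their median was 0.27. Cytosolic ribosomal protein genes were shifted alike at 9.5 hr, 74 of 75 below 0 with a median of -0.18 and none past 2-fold.

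**Figure D3:**
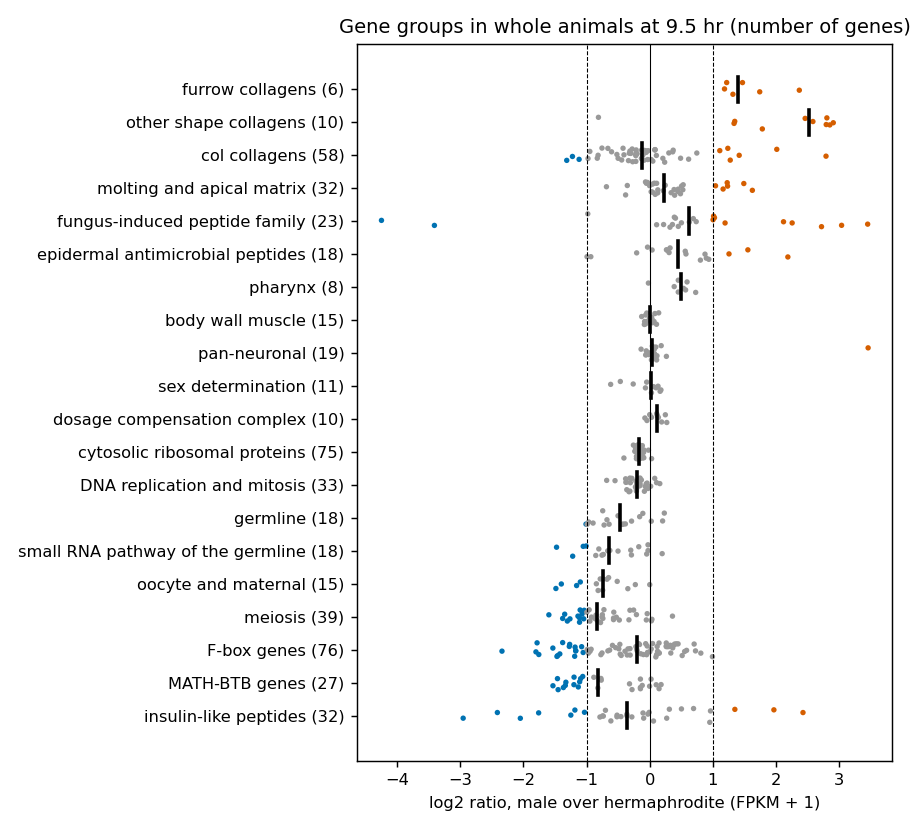
Log2 ratio of male over hermaphrodite whole animals at 9.5 hr for the genes of 20 groups, with the number of genes in parentheses; points past 1 toward males are orange, those past 1 toward hermaphrodites blue, and bars mark medians. Furrow and other shape collagens sit to the right with medians of 1.395 and 2.53, body wall muscle and sex determination genes at 0, and meiosis and MATH-BTB genes to the left with medians of -0.83 and -0.82.

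F-box genes encode substrate receptors of ubiquitin ligases and have multiplied in nematodes. Of 76 that passed the filter, 17 (22.4%) were hermaphrodite-biased and none male-biased, against 3.15% of all genes, and the median was -0.202. fbxa-193 was at 3.24 FPKM in males against 20.5 in hermaphrodites (-2.34) and fbxa-129 at 2.67 FPKM in males against 11.7 in hermaphrodites (-1.78), both pseudogenes in the current annotation, and the coding gene fbxa-139 at 0.76 FPKM in males against 5.15 in hermaphrodites (-1.802). The F-box gene of highest level, fbxa-24, was at 61.4 FPKM in males against 55.3 in hermaphrodites (0.15). Most of the hermaphrodite-biased ones, 12, were on chromosome V. An interval there, chrV:16917238-18128853 of build ce10, was cut to begin and end at hermaphrodite-biased fbxa genes. In it 8 of 9 fbxa genes were hermaphrodite-biased, with a median of -1.47. The 46 other genes of the interval had a median of 0.07, with 7 (15.22%) hermaphrodite-biased, a share above the 3.15% of all genes and the 4.16% of chromosome V.

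The bath genes, which encode MATH and BTB domains found in adaptors of other ubiquitin ligases, were chosen after values had been seen. Of 27, 12 (44.4%) were hermaphrodite-biased and none male-biased, against 3.15% and 2.31% of all genes. The median was -0.82. bath-13 was at 4.47 FPKM in males against 14.8 in hermaphrodites (-1.53), bath-45 at 5.59 FPKM in males against 17.1 in hermaphrodites (-1.46) and bath-20 at 8.02 FPKM in males against 23.7 in hermaphrodites (-1.45). On the left of chromosome II, at chrII:1916803-3358973, 10 of 13 bath genes were hermaphrodite-biased, and the 13 ran from -1.53 to -0.77. The 111 other genes between them had a median of 0.03, with 7 (6.31%) male-biased and 14 (12.61%) hermaphrodite-biased, shares above the 2.42% and 4.18% of chromosome II. The intervals were drawn around these families after their values were known. Each begins and ends at a hermaphrodite-biased member, so the counts of family members inside are partly fixed by that choice. At 15 hr the median of the bath genes was 0.08 and that of the F-box genes -0.09. Both families hold close copies whose reads may be divided.

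Insulin-like peptides, ligands of the receptor DAF-2 that couple food to growth and larval arrest, went both ways. Of 32 that passed, 7 (21.9%) were hermaphrodite-biased and 3 (9.38%) male-biased, against 3.15% and 2.31% of all genes. The median was -0.36. ins-20 was at 4.2 FPKM in males against 26.7 in hermaphrodites (-2.41), and ins-23 had 6.76 FPKM in hermaphrodites but was listed at 0 in males. ins-6, a ligand that promotes reproductive growth, was at 9.98 FPKM in males against 23.96 in hermaphrodites (-1.19), and daf-28, with a like role, at 37.03 FPKM in males against 57.2 in hermaphrodites (-0.61). ins-6 was past 2-fold toward hermaphrodites at 15 hr as well, at 6.72 and 18.7 FPKM (-1.35). ins-20 was by then past 2-fold toward males, at 5.07 FPKM in males against 1.24 in hermaphrodites (1.44). Of 29 peptides that passed the filter at 15 hr, 6 were hermaphrodite-biased and 2 male-biased, against 2.93% and 1.18% of all genes. Toward males, ins-16 was at 10.4 FPKM in males against 1.12 in hermaphrodites (2.43), ins-38 at 7.12 FPKM in males against 1.07 in hermaphrodites (1.97) and ins-36 at 7.86 FPKM in males against 2.47 in hermaphrodites (1.35). The locus of ins-36 overlaps another gene. ins-27, the highest, was at 273 FPKM in males against 278 in hermaphrodites (-0.03). In the receptor pathway and its targets 2 of 16 genes (12.5%) were male-biased, dod-24 (1.25) and the small heat shock gene hsp-12.6 (1.17). The median was 0.25. Several of the hermaphrodite-biased peptides were under 10 FPKM in both sexes.

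The genes that set or read out sex were nearly level in whole animals. xol-1 was listed at 0 in every group. tra-2 was at 40.7 FPKM in males against 38.9 in hermaphrodites (0.06), which does not check the labels, since a temperature-sensitive allele need not lower its transcript. tra-1 was at 70.6 FPKM in males against 64.3 in hermaphrodites (0.13). her-1, the secreted inhibitor of TRA-2 that XO males use, was low, at 4.004 FPKM in males against 6.68 in hermaphrodites (-0.62). None of 11 sex determination genes was past 2-fold, and their median was 0.03. The 10 genes of the complex that lowers X expression in XX animals were between -0.08 and 0.27, with a median of 0.12. The CEM neuron list had 3 of 10 genes above the filter, cwp-4 at 30.6 FPKM in males against 25.1 in hermaphrodites (0.27), cwp-2 at 6.93 FPKM in males against 10.9 in hermaphrodites (-0.59) and W03G9.7, now cil-7, at 0.14. The 7 HSN neuron genes were between -0.502 and 0.501, the lowest being tph-1, the enzyme of serotonin synthesis, at 12.7 FPKM in males against 18.4 in hermaphrodites. In the list of regulators of male development 1 of 10 was past 2-fold, the DM domain gene mab-23, at 1.18 FPKM in males against 6.15 in hermaphrodites (-1.71), toward hermaphrodites. The Hox gene egl-5 was at 12.65 FPKM in males against 19.9 in hermaphrodites (-0.61) and mab-5 at 57.98 FPKM in males against 50.9 in hermaphrodites (0.18). So the labelled sexes could not be checked from transcripts of sexually dimorphic cells in these pooled values.

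Markers of the main tissues were present in both sexes at like levels. Body wall muscle genes had a median log2 ratio of -0.0022 over 15 genes, and lev-11 (tropomyosin) stood at 531 FPKM in males against 549 in hermaphrodites. The median was 0.05 for 9 intestinal genes, 0.04 for 3 coelomocyte genes, 0.097 for 11 epidermal regulators and 0.04 for 7 somatic gonad genes. None of these had a gene past 2-fold. Pharyngeal genes were somewhat higher in males, 7 of 8 above 0 with a median of 0.495 and none past 2-fold; the myosin myo-2 was at 154 FPKM in males against 103.8 in hermaphrodites (0.57). At 15 hr their median was -0.49, toward hermaphrodites. These shifts in tissue markers move with sex beside the epidermal and germline groups above, and their part in those results was not tested.

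unc-119 had the largest ratio among genes of at least 1 FPKM in both sexes. This neuronal gene, needed for axon development, was at 549 FPKM in males against 48.9 in hermaphrodites, a log2 ratio of 3.46, and was the only gene past 2-fold among 19 pan-neuronal genes, whose median was 0.04. The hermaphrodite whole animals at 9.5 hr, the group without rdIs4, had the lowest level of the 8 groups. The other 7 ran from 107 to 549 FPKM, including 365 FPKM in hermaphrodite whole animals at 15 hr, which carried the array. A wild-type unc-119 fragment is a common marker for making transgenic worms, and whether rdIs4 holds one is not given in the sources used here. The array and sex cannot be told apart for this gene at 9.5 hr. ehn-3, whose promoter drives the reporter, was under the filter, at 0.76 FPKM in males against 1.07 in hermaphrodites.

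Several of the other highest male ratios belonged to genes that the files list by sequence name. M163.9 was at 40.4 FPKM in males against 3.63 in hermaphrodites (3.16), F14F3.4 at 73.8 FPKM in males against 7.62 in hermaphrodites (3.12), T17H7.1, now idpp-1, at 49.5 FPKM in males against 4.99 in hermaphrodites (3.08) and VZK822L.2 at 16.21 FPKM in males against 1.15 in hermaphrodites (2.998). F17A9.3, now atf-8, was at 30.7 FPKM in males against 3.44 in hermaphrodites (2.83). The locus of T17H7.1 overlaps another gene. These rank with the squat and roller collagens sqt-3, sqt-1, rol-6 and sqt-2 and with col-17. Together with fipr-29 and unc-119, all of these made up the 12 highest ratios among genes of at least 1 FPKM in both sexes. The most abundant male-biased gene, singled out after values had been seen, was C05G5.7, at 1009 FPKM in males against 220.4 in hermaphrodites (2.19); at 15 hr it was at 1975 and 1562 FPKM.

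Among the 12 lowest ratios of genes with at least 1 FPKM in both sexes, T06G6.5 stood out. It was at 1.19 FPKM in males against 51.8 in hermaphrodites (-4.59). In sorted gonadal cells of the same age it was at 188 and 189 FPKM in males and hermaphrodites, and in whole animals at 15 hr it was at 0 and 0.53 FPKM. C36A4.10 was at 15.6 FPKM in males against 97.2 in hermaphrodites (-2.57) and was within 2-fold in gonadal cells of the same age, at 138 and 173 FPKM. At 15 hr C36A4.10 was at 290 and 209 FPKM in male and hermaphrodite whole animals (0.47). In gonadal cells at 15 hr it was at 37.6 and 268 FPKM (-2.8). F26E4.3 was at 6.62 FPKM in males against 53.3 in hermaphrodites (-2.83), and F14D7.7, now spig-4, at 1.7 FPKM in males against 18.6 in hermaphrodites (-2.86). The other members of the lowest 12 were F42D1.4, K08C9.9, Y57A10A.22, C49G7.6, Y22D7AR.3, Y38E10A.15, ins-20 and fbxa-193, with ratios from -2.47 to -2.299 and hermaphrodite levels from 9.31 to 31.02 FPKM. The locus of C49G7.6 overlaps another gene. The heat shock genes hsp-70 and hsp-16.2 were also hermaphrodite-biased, at 37.96 FPKM in males against 92.5 in hermaphrodites (-1.26), and at 158 FPKM in males against 319.6 in hermaphrodites (-1.01), the only 2 of 12 chaperone genes past 2-fold. The locus of hsp-70 overlaps another gene, and hsp-16.2 has close copies. The heat shock list had 16.7% of its genes hermaphrodite-biased, against 3.15% of all genes, and a median of -0.15. Its most abundant gene, daf-21, was at -0.16.

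A number of genes were listed at 0 in a single sex, 34 in males and 13 in hermaphrodites, and no fold can be given for them. T11F9.14, nspa-9 and H39E20.1 were the highest of those listed at 0 in males, at 42.3, 41.7 and 34.1 FPKM in hermaphrodites. F14H3.14, Y68A4A.13 and Y32H12A.9 led those listed at 0 in hermaphrodites, at 25.9, 21.3 and 16.39 FPKM in males. In whole animals at 15 hr, Y32H12A.9 was at 0 in males and 11.7 FPKM in hermaphrodites, and H39E20.1 at 8.73 and 0 FPKM. T11F9.14, nspa-9 and F14H3.14 were at 0 in both sexes there. Y68A4A.13 stayed higher in males, at 59.96 against 4.88 FPKM. Many histone genes, which every cell uses, are also listed at 0 in all groups. Whether an entry at 0 is a failed estimate was not tested. Of 59 histone genes 33 passed the filter, with 1 past 2-fold, his-42 (-1.49). Pseudogenes of the current annotation were also unequal: 23 of 108 (21.3%) were hermaphrodite-biased and 5 (4.63%) male-biased, against 2.95% and 2.18% of protein-coding genes. These shares were not matched for level, on which the share past 2-fold depended. fbxa-193 and fbxa-129 are counted both here and among the F-box genes.

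The remaining families had shares of biased genes to be read against 2.31% male-biased and 3.15% hermaphrodite-biased of all genes. Neuropeptide genes were mostly level, with 3 (4.29%) male-biased and 1 (1.43%) hermaphrodite-biased of 70. flp-3 was at 116 FPKM in males against 52.5 in hermaphrodites (1.13), nlp-26 at 79.3 FPKM in males against 32.7 in hermaphrodites (1.25) and, toward hermaphrodites, flp-25 at 32.8 FPKM in males against 74.9 in hermaphrodites (-1.17). The locus of flp-3 overlaps another gene. Among 172 nuclear hormone receptors 3 (1.74%, below the share of all genes) were hermaphrodite-biased, nhr-235 (-1.86), nhr-155 (-1.58) and nhr-277 (-1.01), and none male-biased. Of 1348 chemoreceptor genes only 67 passed the filter, with 5 (7.46%) hermaphrodite-biased and 1 (1.49%) male-biased, srt-28 (1.34). Detoxification enzymes had 1 male-biased gene, gst-19 (1.19), and 3 hermaphrodite-biased, cyp-13A2 (-1.31), ugt-22 (-1.096) and gst-8 (-1.07), of 100, both below the shares of all genes. C-type lectins and lysozymes had 3 (5.26%) and 1 (1.75%) of 57, led by clec-47 at 13.2 FPKM in males against 3.1 in hermaphrodites (1.79). In the heterochronic pathway lin-42 alone was past 2-fold of 11, and the developmental timer lin-28 was at 227 FPKM in males against 207 in hermaphrodites (0.13). The most abundant transcripts of all were level: T07A5.5, now ostf-4, was at 1286 FPKM in males against 1475 in hermaphrodites (-0.199), with rpl-29, rps-28, rpl-39 and Y39A3CL.3 between -0.22 and 0.01.

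The share of genes past 2-fold depended strongly on level. Below a mean of 5 FPKM, 10.1% of 455 genes were male-biased and 24.2% hermaphrodite-biased. At 20 to 50 FPKM the shares were 1.68% and 0.811%, and at 100 FPKM or more 0.601% and 0.361%. Hermaphrodite-biased genes were thus the majority below 20 FPKM and the minority above it. When only genes of at least 20 FPKM in the higher sex were counted, there were 133 male-biased and 84 hermaphrodite-biased genes. The 5781 genes with a mean of 1 to 5 FPKM, most of which were below the filter, had a median log2 ratio of -0.26, and 71.8% of them were below 0. The higher count of hermaphrodite-biased genes therefore moves with a general excess of low signal in the hermaphrodite group. The part of that excess in the germline, F-box, MATH-BTB and pseudogene results was not tested.

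**Figure D4:**
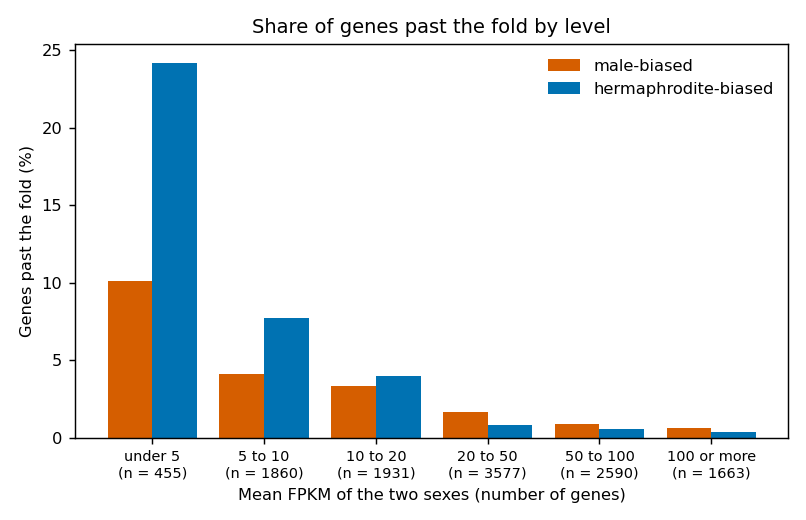
Percent of genes that were male-biased (orange) or hermaphrodite-biased (blue) by the mean FPKM of the sexes at 9.5 hr, with the number of genes in each range below the bars. The hermaphrodite share drops from 24.2% to 0.361% and the male share from 10.1% to 0.601%, and the order of the bars turns over at 20 FPKM.

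The shares also differed with gene length. In the shortest quintile of loci, 81 to 1210 bp from start to end, 4.68% were male-biased and 9.02% hermaphrodite-biased, and in the longest quintile 1.16% and 0.704%. By chromosome, the X held 15.1% of the genes, 19.4% of the male-biased and 8.68% of the hermaphrodite-biased ones. Its median log2 ratio, 0.07, was above those of the autosomes, which ran from -0.02 for chromosome I to 0.0038 for chromosome V, and both sexes had a pair of X chromosomes. Within 2 Mb of tra-2, which lies at chrII:6955359-6965645, 14 and 19 of 704 genes were male-biased and hermaphrodite-biased (1.99% and 2.7%), and on the rest of chromosome II 34 and 64 of 1280 (2.66% and 5%).

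Few of these genes were biased in the same direction in whole animals at 15 hr, which were other samples. Of the 279 male-biased genes 24 (8.6%) were male-biased there, 17.3% of the 139 male-biased genes of that time, and of the 380 hermaphrodite-biased genes 32 (8.42%) were hermaphrodite-biased there, 9.25% of 346. The background at 15 hr was 1.18% male-biased and 2.93% hermaphrodite-biased of the 11824 genes that passed the filter there. Of the 279 and 380 genes only 232 and 237 passed it. Shares of the full sets, here and below, therefore have a wider base than the backgrounds and understate the overlap. In the opposite direction at 15 hr were 15 and 11 genes. The median 15 hr ratio was 0.13 for the male-biased and -0.16 for the hermaphrodite-biased genes, against 0.02 for all 12076. By the study's methods, whole-animal cells were an aliquot of the suspension set aside before sorting. Male whole-animal and gonadal samples of the same time may therefore share larvae, as may those of hermaphrodites at 15 hr. Hermaphrodite whole animals at 9.5 hr were of a strain without the array. In gonadal cells sorted at 9.5 hr, 31 (11.1%) of the male-biased and 35 (9.21%) of the hermaphrodite-biased genes were biased the same way. Only 139 and 150 of the sets passed the filter in those cells. The backgrounds, 3.01% and 2.38%, are over the 10106 genes that passed it. The 31 and 35 genes are 10.2% of the 304 male-biased and 14.5% of the 241 hermaphrodite-biased genes of those cells. In the opposite direction there were 16 and 9 genes. In gonadal cells at 15 hr, of the 9993 genes that passed the filter, 8.92% were male-biased and 4.85% hermaphrodite-biased. Of the 279 male-biased genes 156 passed it, 50 (17.9% of 279) were biased the same way, and 19 the opposite way. Their median there was 0.42. Of the 380 hermaphrodite-biased genes 132 passed it, 23 (6.05% of 380) were biased the same way, and 21 were past 2-fold the opposite way. Their median there, which takes in genes below the filter, was 0. The channel gene ocr-1, chosen after values were seen, had a larger ratio at the later time: it was at 27.9 FPKM in males against 73.8 in hermaphrodites (-1.37) at 9.5 hr and at 3.29 and 98.2 FPKM (-4.53) at 15 hr.

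Past 2-fold in 1 direction in whole animals and in gonadal cells at both times, with at least 5 FPKM in the higher sex each time, were 6 male-biased genes and 1 hermaphrodite-biased gene. sodh-1, an alcohol dehydrogenase, was at 212 FPKM in males against 92.6 in hermaphrodites at 9.5 hr (1.19), at 70.05 and 31.8 FPKM in whole animals at 15 hr (1.12), and at 1.43 and 1.48 on the log2 scale in gonadal cells at the earlier and later time. nlp-28 was alike, with 1.26 and 1.203 in whole animals and 1.33 and 1.21 in gonadal cells. The others, Y59A8B.21, F10G2.2, Y43C5A.3 and C04A11.5, had whole-animal ratios at 9.5 hr of 2.197, 1.29, 1.09 and 1.11. F26E4.3, lower in males throughout, was at -2.83 and -4.48 in whole animals and -2.78 and -1.14 in gonadal cells. The gonadal cells of both sexes carried rdIs4 while the tra-2 allele was in all male groups, so that sex and the male strain cannot be told apart for these 7 genes. Whole-animal and gonadal samples of the same time may also share larvae, so the 4 pairs are not independent.

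**Figure D5:**
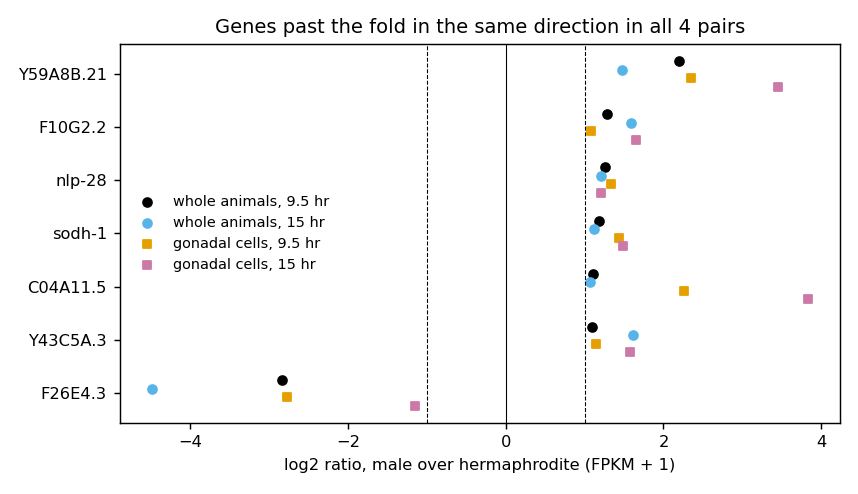
Log2 ratio of male over hermaphrodite level for the 7 genes past 1 in the same direction in whole animals (circles) and sorted gonadal cells (squares) at 9.5 and 15 hr; dashed lines mark 1 in either direction. The whole-animal ratios at 9.5 hr (black) of the 6 male-biased genes lie between 1.09 and 2.197, and F26E4.3 is at -2.83.

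At the edge of the filter, the last gene included was Y48B6A.10, at 5.0008 FPKM in hermaphrodites and 1.82 FPKM in males, and the first left out was F28G4.3, at 4.99993 FPKM in hermaphrodites and 3.92 FPKM in males.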

How the data were processed

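Whole-animal RNA of 3 male and 3 hermaphrodite samples at 9.5 hr was used, with whole animals at 15 hr and sorted gonadal cells at both times for reference. Per the labels and the study's methods, the authors sequenced single-end libraries depleted of ribosomal RNA and aligned them to build ce10 (WS220) with TopHat 1.4.1. The authors then calculated FPKM with Cuffdiff 2.1.1, pooled over the samples of a group. The submitters' processing notes also name CASAVA 1.8 and Picard 1.56. The deposited tables, 1 for each time, list every gene for each of 6 pairs of 4 groups, as FPKM values. They name groups by strain, and strains were matched to groups through the study's methods. Their fold changes, test statistics, p-values and significance calls are the authors' own comparisons and were not used.

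From the pooled FPKM, log2((male + 1)/(hermaphrodite + 1)) was computed for genes of at least 5 FPKM in the higher group, with a log2 ratio of 1 as the fold (Python 3.11.15, pandas 2.3.3, figures with matplotlib 3.10.9). With 1 value per group no test could be run, and depth per sample is unknown. The calculation was tested on simulated data. An entry without a gene name (0.264% of male and 0.293% of hermaphrodite FPKM) was left out, and 2 of the genes that passed are merged entries. Present names and biotypes came from the RefSeq gene table of WBcel235, where 11398 of 12076 genes matched; coordinates are those of ce10 in the files. Overlap of loci was checked without strand, which the files do not give.

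The genes named are the 12 highest and 12 lowest log2 ratios among genes of at least 1 FPKM in the lower group, the 3 highest genes listed at 0 in either sex, the genes of the strains, up to 6 genes past the fold in each list (otherwise the 3 largest ratios) with the list's most abundant gene, and the 5 most abundant genes; others were chosen after their values were seen. The comparison, lists and rule were chosen with earlier results of these data known. Alternatives were another pseudocount (0.1 or 5 FPKM), filter, scaling or fold, and leaving out entries at 0, merged entries or overlapping genes.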

Additional observations from a re-analysis of the deposited data

How the results depend on the processing

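The counts of 279 male-biased and 380 hermaphrodite-biased genes stayed within 1.5 times under a pseudocount of 0.1 FPKM, all 3 other scalings, and without genes listed at 0 in 1 sex, merged entries or, added after seeing the data, overlapping loci. They were 152 and 127 with a pseudocount of 5 FPKM, 133 and 84 with at least 20 FPKM in the higher sex, and 157 and 126 with a mean of at least 10 FPKM over the sexes, a setting added after seeing the data. They were 59 and 60 at a log2 ratio of 2 and 927 and 1178 at 0.5. With a filter of 1 FPKM or none, hermaphrodite-biased genes numbered 784 and male-biased genes 341. So the excess of hermaphrodite-biased genes turned into an excess of male-biased ones with the pseudocount of 5 FPKM, the 20 FPKM filter and the mean of 10 FPKM. The median of all cuticle collagens moved by 0.2 or less throughout, from -0.222 without a filter to 0.0827 at 20 FPKM, and so had no settled sign. Of the 81 genes named by the rule that were past 2-fold, 28 were no longer past 2-fold with a pseudocount of 5 FPKM. Their signs are no check, since a pseudocount cannot change the sign of a ratio and centring moved each by only 0.0006. With 5 FPKM added in place of 1, the medians of the shape collagens, meiosis genes and oocyte genes became 1.67, -0.52 and -0.49, over 1.5 times smaller. Scaling both sexes to the same upper quartile moved the median of all genes to -0.05 and changed the sign of 8 of 41 list medians, all within 0.049 of 0; those of the sex determination, pan-neuronal, neuropeptide, intestine, coelomocyte, somatic gonad, hedgehog-related and nuclear hormone receptor lists. Scaling both sexes to the same sum raised the levels of both, so that 13180 genes passed the 5 FPKM filter in place of 12076. With this setting the median of the F-box genes moved to -0.11. The sign changed for the CEM neuron list, from 0.14 to -0.25, and for body wall muscle, from -0.0022 to 0.010. The scaling and the looser filter changed together here, and their parts in the F-box and CEM changes were not tested separately.

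No paired analysis was possible because the tables used here hold 1 pooled value per group. For the same reason leaving out single samples and the fit with a replicate block were not run, and the spread between samples remains unknown.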

Other observations

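These values concern genes outside the groups above and were chosen after the values were seen. F26E4.3, the gene lower in males in all 4 pairs, lies beside F26E4.2 on chromosome I, at chrI:9762396-9767860 and chrI:9754113-9760776 of build ce10, and the neighbours stood in opposite directions. F26E4.2 was at 166 FPKM in male whole animals and at 60.02 FPKM in hermaphrodites at 9.5 hr, a log2 ratio of 1.46, where F26E4.3 had -2.83. The locus of F26E4.2 overlaps another gene of the table. At 15 hr the ratios were 1.04 and -4.48.

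Some peptide genes that the files list by sequence name, and that the neuropeptide group therefore left out, were hermaphrodite-biased at moderate to high levels. F26A10.1, now nlp-61, had 137 FPKM in males and 293 FPKM in hermaphrodites (-1.09). F33H1.6, now nlp-63, had 40.6 and 96.7 FPKM (-1.23), and M04B2.6, now nlp-88, 42.4 and 96.3 FPKM (-1.16). At 15 hr their log2 ratios were -0.05, -0.66 and -0.02, none past 2-fold.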
